A study of Homo sapiens with 10 samples.

Results

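The mRNAs of 9 factors of nonsense-mediated decay were examined: UPF1, UPF2, UPF3A, UPF3B, SMG1, SMG5, SMG6, SMG8 and SMG9. They were chosen by name, as factors whose own mRNAs are known to answer to the pathway, by a rule that uses no measured value. Earlier results of these data were known when the choice was made. All 9 had reads on a 3′ UTR interval, out of 31015 genes with such an interval. The data came from SLAM-seq of 22RV1, a prostate cancer line established from a tumor that grows despite castration. The untreated control cells and 4 treatments were represented by 2 libraries each, 10 in all. The treatments lasted 4 h and consisted of 20 μM SRPIN340, 50 μM Endovion, THZ531, or THZ531 with 50 μM Endovion. The dose of THZ531 is 100 nM in the methods and 150 nM in the series description. SRPIN340 is an inhibitor of the splicing kinase SRPK1, Endovion was used in the study as an inhibitor of the same kinase, and THZ531 inhibits the elongation kinase CDK12. All cells, controls included, are of 1 cell line, and cells given SRPIN340 together with THZ531 were not analysed here.

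Nonsense-mediated decay removes mRNAs on which the ribosome stops early, often upstream of an exon junction complex that splicing has left behind. The helicase UPF1 is phosphorylated by the kinase SMG1, which works in a complex with SMG8 and SMG9. UPF2 and UPF3B connect UPF1 to the exon junction complex, UPF3A is the paralog of UPF3B, and SMG5 and SMG6 bind phosphorylated UPF1 and start the breakdown of the mRNA, SMG6 by cutting it. Several of these factors are encoded by mRNAs that are themselves substrates, so the pathway can adjust its own supply.

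These are libraries of mRNA 3′ ends, so each factor was counted next to its poly(A) site. The 30 bases around the poly(A) signal are printed for the factors on which the results turn, since these are the ends that the reads mark. They are given 5′ to 3′ from the hg38 genome, and capitals mark the hexamer AATAAA.
SMG1, last 3′ UTR, chr16:18804859-18804888, minus strand: tcagaaAATAAAggttcagtctcaaaagat
SMG8, last 3′ UTR, chr17:59215197-59215226, plus strand: ctttctAATAAAgattggttgttctagaaa
SMG9, last 3′ UTR, chr19:43727993-43728022, minus strand: tttgcaAATAAAtgagccaatacatactct
UPF1, last 3′ UTR, chr19:18868200-18868229, plus strand: caccaaatattAATAAAcagttttgacttc
UPF3A, upstream 3′ UTR, chr13:114282241-114282270, plus strand: agctttttgAATAAAtacatttcagtaaaa
The interval with most reads held AATAAA within its last 50 bases in 9 of 9 factors. Only the strand of the mRNA was searched. Over 17177 intervals of at least 50 bases and 50 reads, 57.7% held AATAAA there. That set includes second intervals of a gene, so it is unlike the set of 9 main intervals. Of the factors' own second intervals of that size, the one of UPF3A held AATAAA, and those of SMG1 and SMG9 did not. The genes differ widely in span, from 5.84 kb for SMG8 over 27.0 kb for SMG9 and 122 kb for SMG1 to 244 kb for SMG6. The main interval had a median length of 1363 bases over the factors and of 1450 bases over 8560 well-covered genes.

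A read with a T>C conversion comes from RNA that took up 4-thiouridine during the last 10 min, and such T>C reads are called nascent RNA, while all reads are called total RNA. Mapped reads per library ranged from 35517462 to 53592904, T>C reads on genes from 1011598 to 1576106, and 5.04% to 5.70% of the reads on genes carried the label. Levels are given as CPM, which are counts scaled to a common library size, here with TMM factors: CPM of all reads for total RNA and CPM of T>C reads for nascent RNA. They measure a gene's part of the RNA. In bulk libraries scaled in this way, fewer producing cells and less RNA per cell cannot be told apart. Markers of prostate luminal epithelium, 9 of 9 detected, summed to 1525 to 1942 CPM, while leukocyte markers stayed at or below 0.306, endothelial markers at or below 0.0318 and fibroblast markers at or below 3.90. CD3E, CDH5 and VWF were at 0 in all libraries.

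THZ531 lowered total RNA of SMG1, SMG8 and SMG9, with SMG9 down to 0.378 of control, and lowered nascent RNA of SMG8 to 0.353 of control. THZ531 with Endovion, called the combination here, lowered SMG8, SMG9 and UPF1 in total and in nascent RNA. Endovion alone lowered total UPF1, and SRPIN340 changed none of the factors at the threshold. A change was called at a Benjamini-Hochberg adjusted p under 0.05 in edgeR's quasi-likelihood test, adjusted over 14689 genes in total RNA and 9946 in nascent RNA. All 9 factors passed the filter on low counts in total RNA. In nascent RNA 8 did, and UPF3A, with 2 to 9 T>C reads per library, did not.

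In total RNA, THZ531 lowered 3 of 9 factors and raised 0, against 14.1% of all tested genes that were lowered and 16.6% that were raised. THZ531 with Endovion lowered 3 and raised 0, with 12.4% of genes lowered and 16.6% raised. Endovion lowered 1 factor and raised 0, with 2.54% of genes lowered and 8.90% raised. SRPIN340 changed 0 factors, with 1.96% of genes changed in either direction. By the rule of the study, which takes unadjusted p below 0.05 but asks for a log2 change of 1 or more either way, SMG9 was the 1 factor lower with THZ531 and with the combination, where 7.86% and 6.62% of genes were, and 0 factors passed with Endovion, where 6.88% of genes did. The median log2 fold change of the 9 factors was -0.29 for THZ531 and -0.09 for the combination, where the medians over all genes were -0.01 and -0.00. It was 0.01 for SRPIN340 and -0.09 for Endovion, next to 0.03 and 0.02 over all genes. All 4 comparisons share the control libraries.

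**Figure D1:**
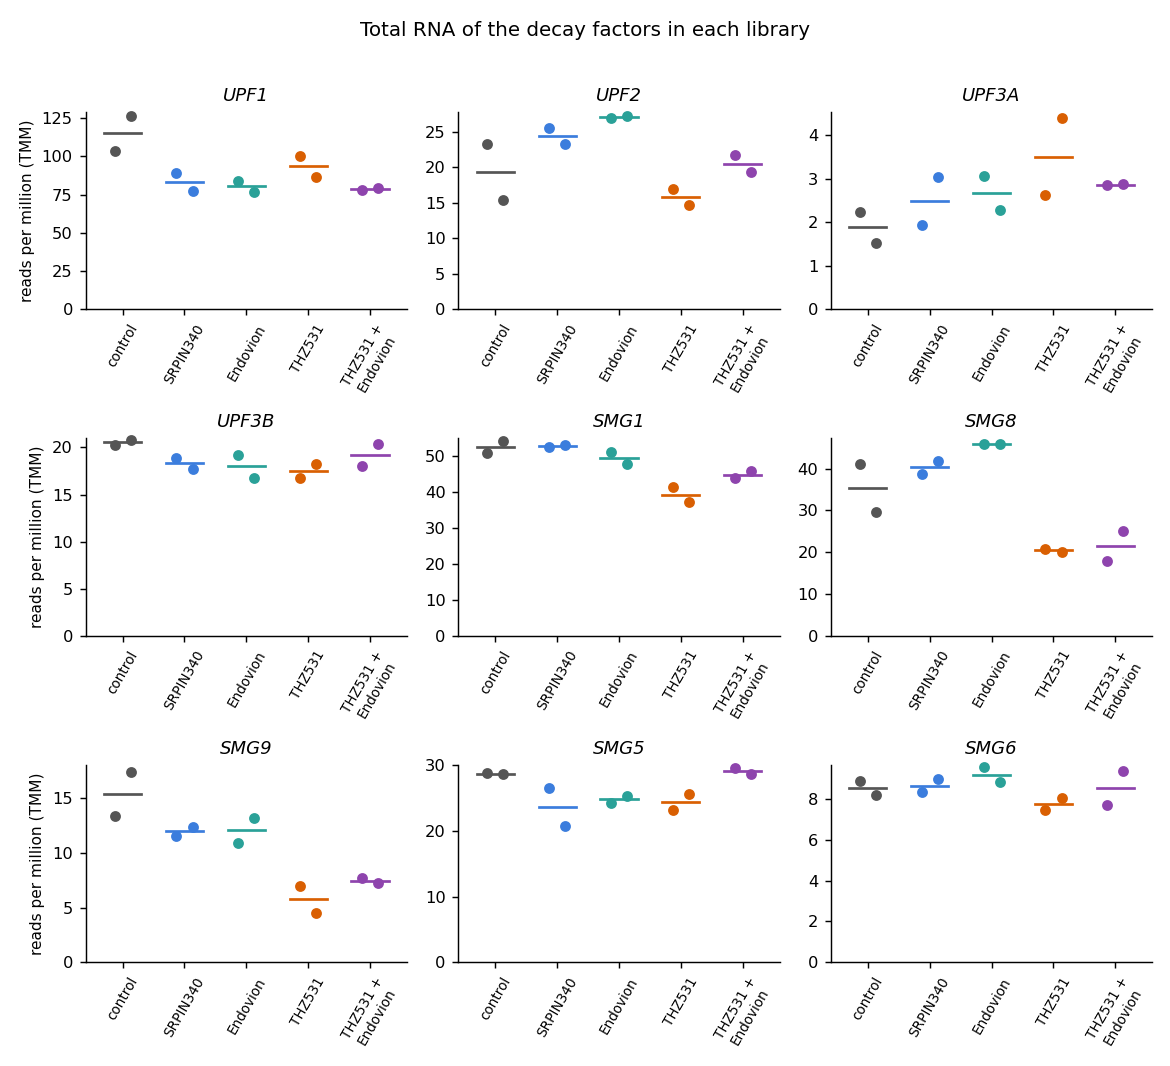
Total RNA of the 9 factors in each library. The y axes give CPM of all reads (reads per library size, TMM scaled), each point is a library and each line the mean of the 2 libraries of a group. SMG8 and SMG9 lie lower in both groups with THZ531 than in control, and UPF1 lies lower in every treated group.

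In nascent RNA, THZ531 lowered 1 of 8 tested factors, where 3.60% of genes were lowered. THZ531 with Endovion lowered 3 of 8, where 3.51% of genes were lowered. SRPIN340 changed 0 of 8, with 1.04% of genes changed in either direction, and Endovion changed 0 of 8, with 2.66%. At an unadjusted p under 0.05, UPF1 alone was low in each of the last 2 comparisons. The median log2 fold change of the 8 factors was -0.45 for THZ531 and -0.70 for the combination, -0.10 for SRPIN340 and 0.04 for Endovion. The median over all genes lay between -0.02 and -0.01 in the 4 comparisons.

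**Figure D2:**
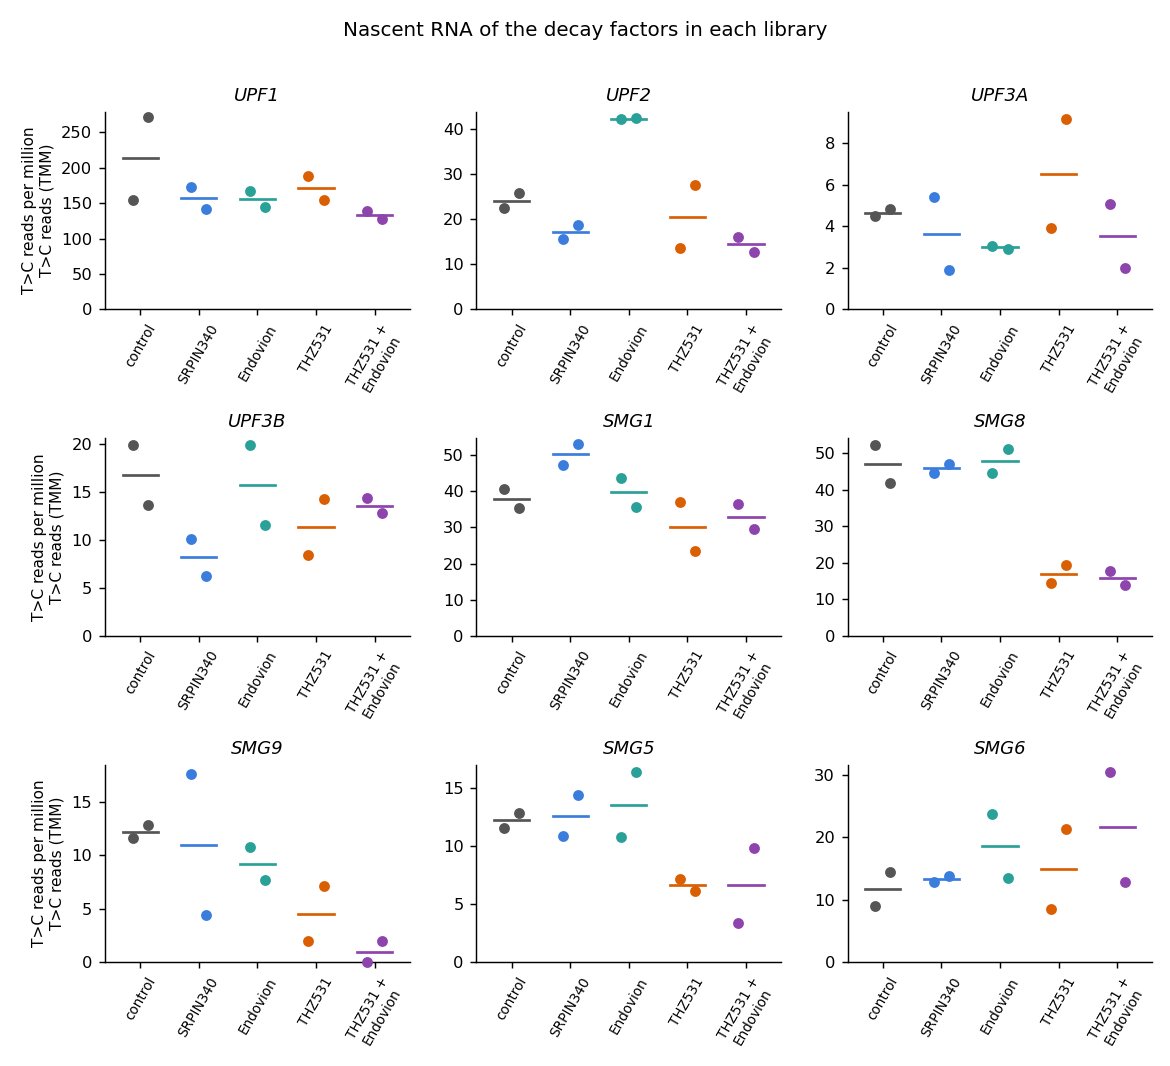
Nascent RNA of the 9 factors in each library. The y axes give CPM of T>C reads (TMM scaled), each point is a library and each line the mean of the 2 libraries of a group. SMG8 falls from above 41 in control to below 20 in both groups with THZ531, and SMG9 reaches 0 in a library of the combination.

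SMG9, a subunit of the kinase complex that pairs with SMG8, gave the largest fall in total RNA among the factors. Its total RNA was 13.4 and 17.4 CPM in control, 11.5 and 12.4 with SRPIN340, 10.9 and 13.2 with Endovion, 7.01 and 4.50 with THZ531, and 7.67 and 7.22 with the combination. Both groups with THZ531 thus lay below all 6 other libraries. The log2 fold change against control was -1.40 ± 0.23 (SE) for THZ531 (edgeR adjusted p = 0.000431). It was -1.04 ± 0.23 for the combination (edgeR adjusted p = 0.00330), which is 0.485 of the control level with a 95% interval from 0.347 to 0.677. Both calls held without any single library, with edgeR adjusted p up to 0.00568 and 0.0306.

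T>C reads of SMG9 were few. There were 18 and 16 in control, 26 and 7 with SRPIN340, 14 and 8 with Endovion, 3 and 7 with THZ531, and 0 and 2 with the combination. The replicates of SRPIN340 and of THZ531 were far apart, while both libraries of the combination lay at the bottom, beside 1 library of THZ531. Scaled to T>C reads, control exceeded the combination 13.3 times by the summed counts of 34 and 2, and a counting interval of 95% ran from 3.42 to 115 times. The fitted log2 fold change was -3.59 ± 1.13 (edgeR adjusted p = 0.0345), and it ran from -2.57 without replicate 1 of the combination to -7.02 without replicate 2. The call was lost in DESeq2 (adjusted p = 0.0662), in the plain sum of overlapping intervals and in the fit of the 2 groups alone. It was also lost without either control library or without replicate 1 of the combination, where the edgeR adjusted p reached 0.307. A second interval of SMG9 held 5.71% of its reads but 23 of its 101 T>C reads, and on the main interval alone the log2 fold change was -4.11, with an edgeR adjusted p of 0.0493 when each gene had 1 interval and of 0.0512 when all intervals were tested. For THZ531 alone the log2 fold change was -1.50 ± 0.89 and was not called (edgeR adjusted p = 0.343).

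SMG8, which binds the kinase and holds its activity in check, was the factor called in nascent RNA under both THZ531 and the combination. Its CPM of T>C reads were 52.1 and 41.7 in control, 44.6 and 46.9 with SRPIN340, and 44.5 and 51.0 with Endovion. They were 14.3 and 19.3 with THZ531 and 17.8 and 13.8 with the combination, so that these 4 libraries lay far below the other 6. The log2 fold change was -1.50 ± 0.39 for THZ531 (edgeR adjusted p = 0.00833) and -1.56 ± 0.40 for the combination (edgeR adjusted p = 0.00650). These rest on 133 T>C reads in control, 41 with THZ531 and 35 with the combination. Both calls were lost without control replicate 1, at edgeR adjusted p of 0.0724 and 0.0539. The call for THZ531 was also lost without its replicate 1 (edgeR adjusted p = 0.126), and that for the combination without its replicate 2 (edgeR adjusted p = 0.0848).

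Total RNA of SMG8 was 41.1 and 29.7 CPM in control, 38.7 and 41.9 with SRPIN340, 45.9 and 45.8 with Endovion, 20.7 and 20.1 with THZ531, and 17.8 and 25.0 with the combination. The 4 libraries with THZ531 again lay below the other 6. Its log2 fold change was -0.79 ± 0.18 for THZ531 (edgeR adjusted p = 0.00349) and -0.73 ± 0.18 for the combination (edgeR adjusted p = 0.00639). The call for THZ531 held without any single library. The call for the combination was lost without control replicate 1 or without replicate 1 of the combination, with edgeR adjusted p up to 0.0729 and a log2 fold change of -0.47 without that control library. In both comparisons the fall of SMG8 was larger in nascent than in total RNA, a difference that the labeled share tests below. At least 1 of the 2 intervals counted for SMG8 overlaps an interval of another gene on the same strand, ENSG00000265303. Reads in the overlap cannot be separated, and which of the 2 intervals overlaps was not recorded.

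SMG1, the kinase itself, moved less. Its total RNA was 51.0 and 54.2 CPM in control, 52.7 and 53.1 with SRPIN340, 51.1 and 47.8 with Endovion, 41.5 and 37.2 with THZ531, and 43.8 and 45.8 with the combination. Both groups with THZ531 lay below all the others. The log2 fold change was -0.42 ± 0.12 for THZ531 (edgeR adjusted p = 0.0181) and -0.23 ± 0.12 for the combination, which was not called (edgeR adjusted p = 0.173). The call for THZ531 was lost without control replicate 2, without replicate 2 of THZ531 (edgeR adjusted p = 0.0978) and in the fit of the 2 groups alone. Nascent RNA of SMG1 ranged from 23.4 to 53.2 CPM, without a call, and its change under THZ531 had a 95% interval from -1.02 to 0.42 on the log2 scale.

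UPF1 was the 1 factor called with Endovion alone. Its total RNA was 104 and 127 CPM in control, 89.2 and 77.2 with SRPIN340, 84.1 and 76.7 with Endovion, 100 and 86.2 with THZ531, and 78.3 and 79.0 with the combination. All 8 treated libraries lay below both control libraries. The log2 fold change was -0.52 ± 0.13 for Endovion (edgeR adjusted p = 0.0210) and -0.55 ± 0.13 for the combination (edgeR adjusted p = 0.00595). For SRPIN340 it was -0.47 ± 0.13 (edgeR adjusted p = 0.0714) and for THZ531 -0.30 ± 0.13 (edgeR adjusted p = 0.0926), neither of them called. The call for the combination held without any single library (edgeR adjusted p up to 0.0480). That for Endovion was lost without control replicate 2 or without either Endovion library (edgeR adjusted p up to 0.171). For SRPIN340 a call appeared in DESeq2, without the low-count filter and without control replicate 1 or either THZ531 library.

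Nascent RNA of UPF1, the best covered of the factors with 130 to 339 T>C reads per library, was 155 and 272 CPM in control, 172 and 142 with SRPIN340, 167 and 145 with Endovion, 188 and 155 with THZ531, and 139 and 128 with the combination. Control replicate 2 stood alone at the top, and the combination was the 1 treatment with both libraries below both controls. The log2 fold change of the combination was -0.67 ± 0.21 (edgeR adjusted p = 0.0360). Without control replicate 2 it was -0.21 and without control replicate 1 -1.02, so the size of this fall differed with the control library used. It was not called in DESeq2 (adjusted p = 0.0944), in the fit of the 2 groups alone (edgeR adjusted p = 0.0635), in the plain sum of intervals or without either library of the combination. Without control replicate 1, nascent UPF1 was also called lower under SRPIN340 and under Endovion.

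**Figure D3:**
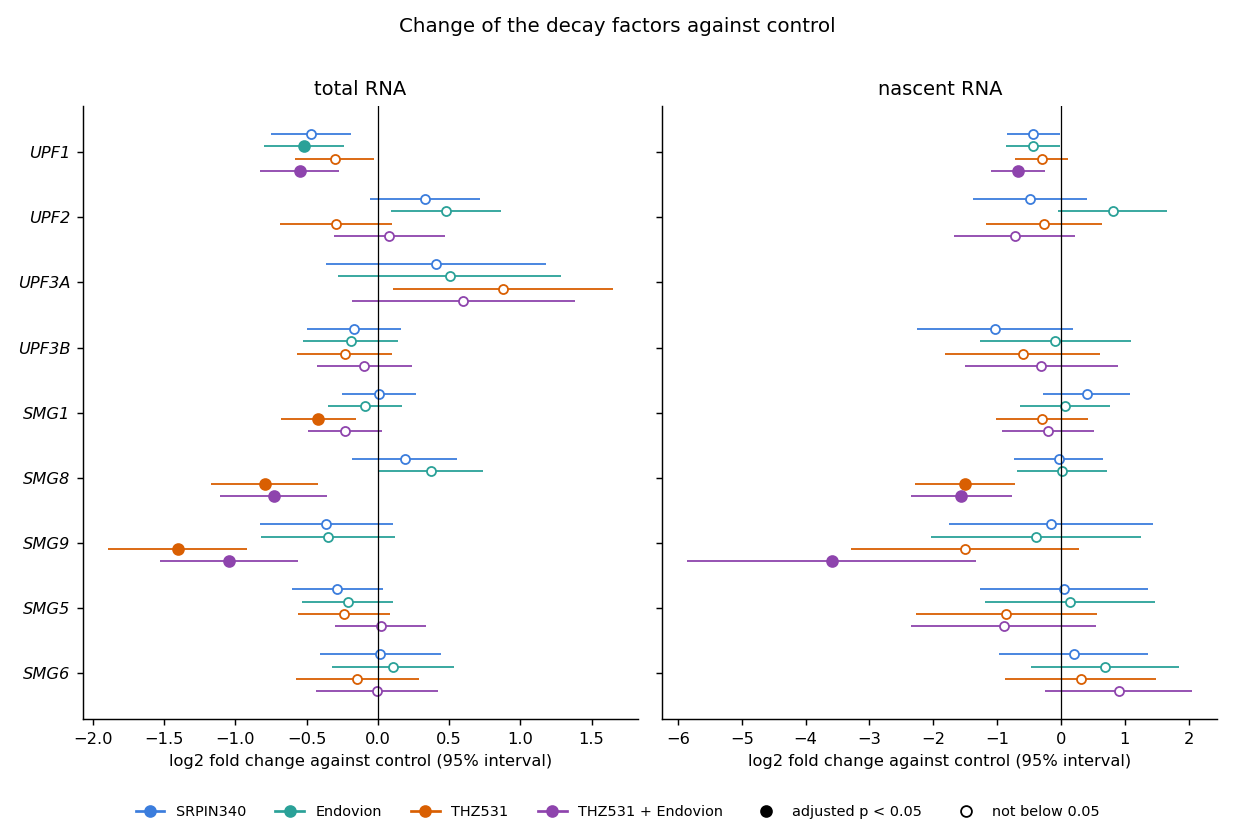
Log2 fold change of each factor against control in total RNA (left) and nascent RNA (right), with 95% intervals. Filled points have an adjusted p under 0.05, and UPF3A was not tested in nascent RNA. The filled points are all to the left of 0 and belong to UPF1, SMG1, SMG8 and SMG9.

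UPF2, the adaptor between UPF1 and the UPF3 proteins, gave the highest nascent values with Endovion. Its nascent CPM were 22.5 and 25.7 in control, 15.6 and 18.8 with SRPIN340, 42.2 and 42.3 with Endovion, 13.7 and 27.5 with THZ531, and 16.1 and 12.8 with the combination. Neither the difference of Endovion from control, 0.81 ± 0.43 on the log2 scale (edgeR adjusted p = 0.392), nor any other was called. Total UPF2 with Endovion was 26.9 and 27.2 CPM against 23.3 and 15.4 in control, a log2 difference of 0.48 ± 0.18 (edgeR adjusted p = 0.0983). Whether the effect of Endovion on nascent UPF2 differed with and without THZ531 was tested as an interaction, which was -1.27 ± 0.65 on the log2 scale and not called (edgeR adjusted p = 0.663). No factor was called in that interaction, next to 0.302% of all genes.

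UPF3B, which carries UPF2 to the exon junction complex, was steady in total RNA, with 16.7 to 20.8 CPM over the 10 libraries. The 95% intervals of its 4 log2 changes lay between -0.57 and 0.24. With SRPIN340 its nascent values were 10.1 and 6.26 CPM against 20.0 and 13.6 in control, a log2 difference of -1.04 ± 0.61 (edgeR adjusted p = 0.591). UPF3A had between 36 and 96 reads per library. Its total RNA was 2.25 and 1.51 CPM in control and 2.62 and 4.40 with THZ531, a log2 difference of 0.88 ± 0.36 that was not called (edgeR adjusted p = 0.0793).

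SMG5 and SMG6, which act on phosphorylated UPF1, were not called in any comparison. Total SMG5 ranged from 20.7 to 29.6 CPM and total SMG6 from 7.45 to 9.57. The 95% intervals of their log2 changes in total RNA lay between -0.60 and 0.34 for SMG5 and between -0.57 and 0.53 for SMG6. Nascent SMG5 was 11.6 and 12.8 CPM in control, 7.16 and 6.10 with THZ531, and 3.39 and 9.83 with the combination. Although all 4 libraries with THZ531 were below both controls, they held 4 to 11 T>C reads each, and the log2 differences of -0.86 ± 0.71 and -0.90 ± 0.72 were not called (edgeR adjusted p = 0.533 and 0.511). Nascent SMG6 was 9.01 and 14.4 in control and 30.5 and 12.8 with the combination, where the replicates differed more than the groups. The interval of SMG6 lies opposite HIC1 on the other strand, and the sources used here do not state whether reads were counted by strand.

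Adding Endovion to THZ531 gave no call for any factor relative to THZ531 alone, neither in nascent RNA, where 0.322% of genes were called, nor in total RNA, where 0.511% were. The test on total RNA was added after the data had been seen. At an unadjusted p under 0.05, 0 factors were changed in either, and DESeq2 called 0 in nascent RNA. The log2 difference for SMG9 was -2.09 in nascent RNA, with a 95% interval from -4.61 to 0.43, and 0.36 in total RNA, from -0.14 to 0.86. For SMG8 the intervals were -0.94 to 0.82 and -0.31 to 0.44.

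The labeled share, which is the percentage of a gene's reads with a T>C conversion, relates nascent to total RNA within each library. Over the summed reads of both control libraries it was 9.80% for UPF1, 7.21% for SMG6, 7.16% for SMG8, 6.57% for UPF2, 4.52% for UPF3B, 4.31% for SMG9, 3.94% for SMG1 and 2.28% for SMG5. The median of the tested genes was 5.19%. The share of UPF1 was higher than that of 82.2% of genes and the share of SMG5 higher than that of 7.30%. The share of UPF3A, 13.1%, rests on 13 T>C reads. These shares were not adjusted for the number of T in the reads, so they describe each gene and were not tested between genes.

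**Figure D4:**
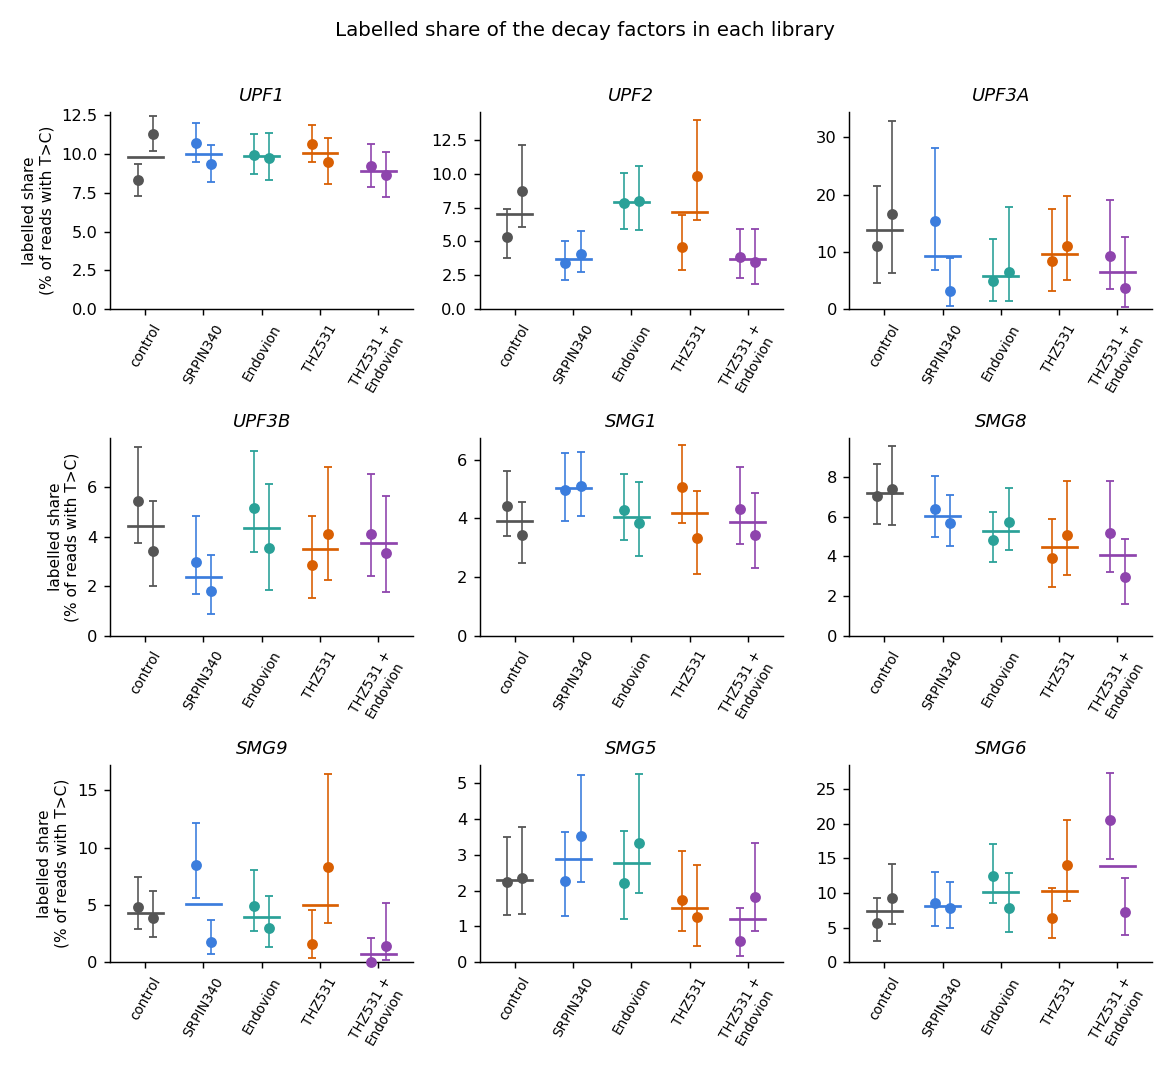
Labeled share of the 9 factors in each library, as the percentage of reads with a T>C conversion. Points are libraries with exact 95% binomial intervals, which cover counting error only, and lines are means of the 2 libraries of a group. The share of SMG8 is lower in each treated library than in both controls, with intervals that overlap those of the controls except in replicate 2 of the combination.

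Tested as an interaction of treatment with read class, the labeled share changed in 0 of 8 factors under each of the 4 treatments, next to 0.191% of genes for SRPIN340, 0.292% for Endovion, 0.312% for THZ531 and 1.06% for the combination. DESeq2 likewise called 0 factors. SMG8 had shares of 7.03% and 7.37% in control, 6.38% and 5.68% with SRPIN340, 4.84% and 5.72% with Endovion, 3.91% and 5.07% with THZ531, and 5.16% and 2.94% with the combination. The 2 groups with THZ531 were below both controls by -0.64 ± 0.39 and -0.72 ± 0.40 on the log2 scale (edgeR adjusted p = 0.622 and 0.479), so the larger fall of SMG8 in nascent than in total RNA was not separated from the spread. For SMG9 the share was 4.80% and 3.86% in control and 0% and 1.45% with the combination. With 3 reads taken as the limit, the 0 of 175 reads allow a share of up to 1.71%, and the exact 95% binomial interval reaches 2.09%. This difference of -2.60 on the log2 scale had an unadjusted edgeR p of 0.0376 and was not called over all genes (edgeR adjusted p = 0.361). By the study's threshold it was the 1 of 8 factors lower in share, next to 2.01% of genes. The share of UPF1 stayed between 8.29% and 11.3% over the 10 libraries. Its mean was 9.78% in control and 8.90% with the combination. The fitted log2 change under the combination was 0.05, with a 95% interval from -0.34 to 0.45. That test scaled T>C reads and other reads separately, so its log2 changes are relative to those of all genes.

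SMG1 had a second interval with reads, chr16:18875608-18876111 on the minus strand, which lies inside the gene and far upstream of its last 3′ UTR at chr16:18804853-18809568. Control libraries had 0 and 2 reads there, SRPIN340 1 and 0, Endovion 0 and 1, THZ531 26 and 32, and the combination 14 and 15. The 4 libraries with THZ531 held 87 of the 91 reads. As a share of the reads of both intervals this was 2.31% and 4.62% with THZ531 and 1.40% and 1.71% with the combination. In the other 6 libraries it was at most 0.155%, and the exact 95% binomial intervals of the 3 without reads reached up to 0.276%. By summed counts, THZ531 exceeded control 32.8 times, with a counting interval of 95% from 8.69 to 278, and the combination exceeded control 17.9 times, from 4.54 to 155.

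In a test of each interval on its own, added after the data had been seen, this interval rose under THZ531 (log2 difference 4.87 ± 1.18, edgeR adjusted p = 0.00503) and under the combination (3.94 ± 1.21, edgeR adjusted p = 0.0217). Of all intervals tested, 15.4% were higher with THZ531 and 14.9% with the combination. Over all 13 tested intervals of the factors, THZ531 raised 2 and lowered 3, the combination raised 1 and lowered 3, where 12.9% of intervals were lower, Endovion lowered 1, where 2.69% were, and SRPIN340 changed 0, where 1.17% were changed. The call for the internal interval under THZ531 was lost without replicate 2 of THZ531 (edgeR adjusted p = 0.0633), and that under the combination without control replicate 1 (edgeR adjusted p = 0.116) or without either library of the combination. Without control replicate 1 the log2 differences were 3.87 and 2.95, and without control replicate 2, which held both control reads, 8.02 and 7.10. The last 3′ UTR of SMG1 taken alone fell under THZ531 by 0.51 on the log2 scale (edgeR adjusted p = 0.00681), and 14.6% of intervals were lower there. That call was lost without control replicate 2 or without replicate 2 of THZ531 (edgeR adjusted p up to 0.114). None of the 91 reads at the internal interval carried a T>C conversion. With 3 reads taken as an approximate limit, this allows a labeled share of up to 3.30%. The last 3′ UTR had 4.35%, and the difference between them was not tested.

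The origin of these reads is uncertain. The internal interval has 7 other places in the genome with at least 95% identity over 80 or more bases, and the best of them, chr16:21895009-21895510, matches 505 aligned bases at 97.4%. The last 3′ UTR of SMG1, with 99.2% of the gene's reads, has 47 such places. The best of these, on chromosome 13, matches 287 of its 4716 bases at 95.1%, so some of its reads may be uncertain too. No AATAAA or ATTAAA stands in the last 50 bases of the internal interval, and 71.2% of the searched intervals held one of them there.

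**Figure D5:**
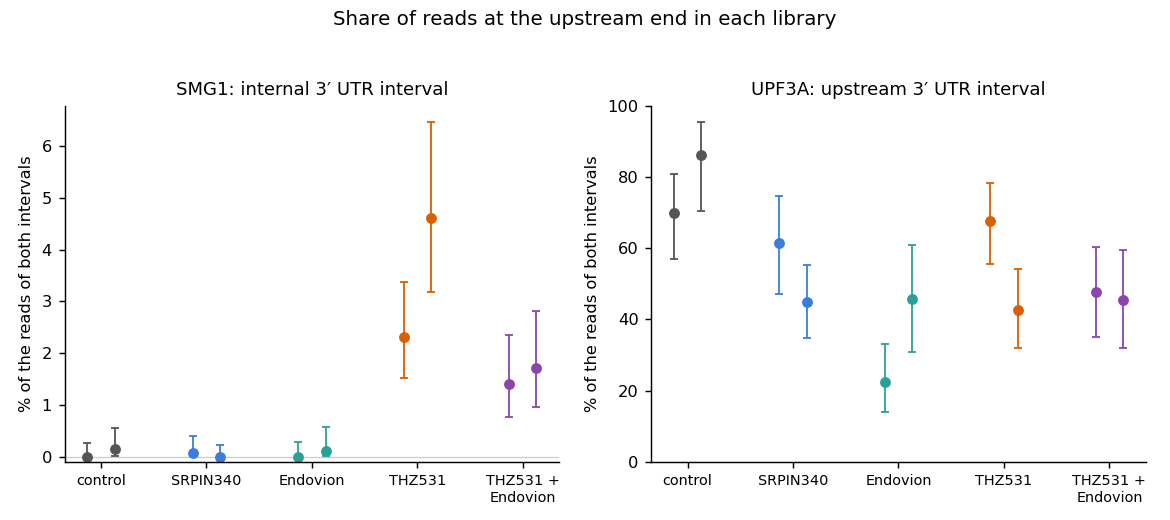
Share of reads at the upstream of 2 intervals of SMG1 (left) and UPF3A (right) in each library, in percent of the reads of both intervals, with exact 95% binomial intervals. The SMG1 share is above 1.40% in the 4 libraries with THZ531 and at or below 0.155% in the others. The UPF3A share is highest in the 2 control libraries, but the replicates of several treatments differ as much as the groups.

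UPF3A also ended at 2 places. Its upstream interval, chr13:114282132-114282270, held 44 and 31 reads in control, 32 and 43 with SRPIN340, 18 and 21 with Endovion, 48 and 35 with THZ531, and 31 and 25 with the combination. The last one held 19 and 5 in control, 20 and 53 with SRPIN340, 62 and 25 with Endovion, 23 and 47 with THZ531, and 34 and 30 with the combination. The last end was lowest in control replicate 2, and its replicates were far apart in 4 of 5 groups. Tested alone, the last interval was called higher under THZ531 (log2 difference 1.82 ± 0.65, edgeR adjusted p = 0.0460). It was not called with Endovion (1.96 ± 0.65, edgeR adjusted p = 0.0658), with the combination (1.70 ± 0.66, edgeR adjusted p = 0.0639) or with SRPIN340 (1.39 ± 0.65, edgeR adjusted p = 0.268), and these differences were not tested against that of THZ531. The call was lost without control replicate 2, without replicate 2 of THZ531, where the log2 difference was 0.89 (edgeR adjusted p = 0.460), and without either library of the combination, and without control replicate 1 the difference was 2.91. The upstream interval was called in none of the 4 comparisons. The 2 ends also differed in label: 49 of 328 reads, or 14.9%, carried a conversion at the upstream end and 5 of 318, or 1.57%, at the last end. The last interval has a copy on chromosome 17, which is 98.8% identical over 891 bases, so reads may have been lost or shared there.

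Other genes of the pathway were taken from 4 lists. Of 10 proteins of the exon junction complex and its partners, THZ531 raised 2 in nascent RNA and lowered 0, and so did the combination, while 3.86% and 4.61% of all genes were raised. SRPIN340 and Endovion raised 1 each, next to 0.845% and 2.04% of genes. In total RNA 0, 2, 3 and 3 were raised by SRPIN340, Endovion, THZ531 and the combination, next to 1.82%, 8.90%, 16.6% and 16.6% of all genes, and the combination lowered 1, next to 12.4%. The values of single genes that follow are for nascent RNA. EIF4A3, the helicase that anchors the complex, was higher in all 4 treatments, with log2 differences of 0.69 for SRPIN340, 0.82 for Endovion, 0.96 for THZ531 and 1.04 for the combination (edgeR adjusted p = 0.0139, 0.000697, 3.71e-05 and 6.30e-06). Its T>C reads in control were 562 and 303. RNPS1, a partner of the complex, rose by 0.91 with THZ531 and by 1.09 with the combination (edgeR adjusted p = 0.0269 and 0.00620). The median of the list was 0.20 for THZ531 and 0.15 for the combination.

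Of 12 genes of termination, cap binding and other helpers, 9 were tested in nascent RNA and 12 in total RNA. In total RNA each of the 4 treatments raised 1, next to 1.82%, 8.90%, 16.6% and 16.6% of genes, and THZ531 and the combination also lowered 1, next to 14.1% and 12.4%. In nascent RNA PABPC1, the poly(A) binding protein, rose in all 4 treatments, by 0.88 with SRPIN340, 0.99 with Endovion, 0.87 with THZ531 and 1.12 with the combination (edgeR adjusted p between 1.62e-06 and 8.04e-04), although it has near-identical copies in the genome and its counts are uncertain. With the combination, 2 genes of the list fell in nascent RNA, where 3.51% of all genes did: SEC13, a coat protein counted among the helpers, by 0.64, and GSPT1, the release factor eRF3, by 0.61 (edgeR adjusted p = 0.00794 and 0.0169). The median of the list was -0.52 with the combination and -0.09 with THZ531.

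Of 17 genes of decapping, deadenylation and exonuclease digestion, SRPIN340 and THZ531 each raised 1, Endovion raised 3, and the combination raised 2 and lowered 1 in nascent RNA. Of all genes, 0.845%, 3.86%, 2.04% and 4.61% were raised in these 4 comparisons in that order, and 3.51% were lowered by the combination. In total RNA SRPIN340 raised 1 (1.82% of all genes), Endovion raised 6 (8.90%) and lowered 1 (2.54%), THZ531 raised 4 (16.6%), and the combination raised 5 (16.6%) and lowered 1 (12.4%). PATL1, a decapping activator, was the gene of the list raised in nascent RNA in all 4 treatments, with log2 differences from 1.12 to 1.24 (edgeR adjusted p between 3.35e-04 and 0.00249). Its T>C reads were 80 and 66 in control and 105 to 207 in treated libraries. Endovion also raised DCP1A, a subunit of the decapping complex, by 1.19 and the deadenylase CNOT8 by 1.08 (edgeR adjusted p = 0.0215 and 0.0439). The combination raised CNOT8 by 1.12 and lowered its paralog CNOT7 by 0.57 (edgeR adjusted p = 0.0164 and 0.0143).

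Of 23 known substrates of the pathway, 16 were tested in nascent RNA and 19 in total RNA. Their median log2 change in total RNA was 0.18 for THZ531, 0.05 for the combination, -0.13 for Endovion and 0.03 for SRPIN340. THZ531 and the combination each raised 6 and lowered 3 in total RNA, next to 16.6% of all genes raised in either and 14.1% and 12.4% lowered. Endovion raised 3 and lowered 3, next to 8.90% raised and 2.54% lowered, and SRPIN340 raised 1, next to 1.82%. In nascent RNA THZ531 raised 2 and lowered 1, next to 3.86% and 3.60% of genes, and the combination raised 3 and lowered 2, next to 4.61% and 3.51%. THZ531 raised the stress gene GADD45A by 1.32 and the splicing factor TRA2B by 0.58 and lowered TBL2 by 1.68 (edgeR adjusted p = 0.0226, 0.0390 and 8.38e-04). The combination raised GADD45A by 1.29, the transcription factor ATF3 by 1.24 and the splicing regulator HNRNPL by 1.03 (edgeR adjusted p = 0.0247, 0.0108 and 0.00629). TBL2, named here after its values were seen, fell by 1.13 with the combination (edgeR adjusted p = 0.0265). In nascent RNA Endovion lowered 1 substrate, next to 0.623% of genes, and SRPIN340 changed 0. SRSF7, a splicing factor, fell by 0.72 with Endovion and by 0.83 with the combination (edgeR adjusted p = 0.00267 and 1.93e-04). The 3′ ends do not tell the isoforms of these genes apart, so the isoform that decay removes was not measured.

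Among 4777 genes that had no library under 20 T>C reads, the nascent profiles most like the mean profile of the 8 factors over the 10 libraries were those of STAG2 (Pearson r = 0.94), KDM5A (0.93) and ENOSF1 (0.93). The points are the 10 libraries, which share the scaling of T>C reads, and no test was made of these values.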

How the data were processed

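The authors made 3′ end libraries of alkylated RNA from 300 ng of total RNA, sequenced 101-base single-end reads, and counted conversions with SLAM-DUNK on hg38. The deposited values used here are raw counts for each 3′ UTR interval, of all reads and of reads with a T>C conversion. The deposited conversion rate, a fraction, and a deposited score-like read CPM from the authors' tool were not used. The deposited count of multimapping reads was 0 over all intervals and libraries. How reads that fit several places were handled is not given in the sources used here. Molecular identifiers were in the libraries, but whether counts were reduced by them is not given in the sources used here, so binomial and Poisson intervals cover counting error only. In 5000 of 5000 intervals checked, the number of T equalled that in hg38.

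Of 104653 intervals, 92826 matched a GENCODE v44 transcript, and 3.57% of T>C reads lay on unmatched ones. Where intervals of 1 gene overlapped, that with the highest count was kept, leaving 57531. A plain sum over intervals had been planned and became an alternative, since it counts reads more than once. Tests on summed counts used the robust quasi-likelihood method of edgeR 4.0.16 under R 4.3.3, with TMM factors and filterByExpr, in 1 fit over 10 libraries with 5 residual degrees of freedom. SE is the log2 fold change over the square root of F, and intervals are 95%. The share test used group by read class with library as a block, and T>C reads and other reads were scaled separately. DESeq2 1.42.0 was an alternative. Nothing in the sources says that replicates were separate cultures, so p-values measure the spread between these libraries, which may be technical. The steps were also run on simulated data, and the outcome is not reported here. The simulated labeled shares had no spread between libraries beyond counting error, unlike the data.

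The 9 factors and the gene lists were chosen with earlier results of these data known. List genes are named if called in nascent RNA against control, at most 4 per list and comparison by smallest p, together with the 3 genes most alike and genes overlapping a factor. Other settings tried were RLE factors, scaling by all reads, no filter, 1 interval per gene, 2 groups alone, a replicate block, each library left out, and the study's threshold of an unadjusted p under 0.05 with a log2 change of at least 1 in size.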

Additional observations from a re-analysis of the deposited data

How the results depend on the processing

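Of 242 refits of the called values under other settings, 202 kept direction and call, 40 lost the call and 0 changed direction. Of 1787 refits of values that were not called, 120 changed sign. The labels number the replicates of each group. The replicate difference was nearly uncorrelated between groups in nascent RNA (correlations from -0.066 to 0.059). Counting error in genes with few T>C reads lowers such correlations, and total RNA was not checked. These values therefore cannot decide whether same-numbered libraries were handled together. With the replicate block the number of factors called was 0, 0, 1 and 3 in nascent RNA and 0, 1, 3 and 3 in total RNA for SRPIN340, Endovion, THZ531 and the combination, as without it, while genes called in total RNA under SRPIN340 went from 288 to 96.

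Nascent RNA of the combination had 3 factors called and 1, SMG8, in DESeq2, the plain sum of intervals and the 2-group fit. With the study's threshold, total RNA had 0 factors called for Endovion, 1 for THZ531 and 1 for the combination, SMG9 in both, and the labeled share had 1 for the combination, SMG9. Total UPF1 made 1 call for SRPIN340 in DESeq2 and 1 without the filter. With 1 library left out, the number of factors called ranged in nascent RNA from 0 to 1 for SRPIN340, 0 to 1 for Endovion, 0 to 1 for THZ531 and 1 to 3 for the combination. In total RNA it ranged from 0 to 2 for SRPIN340 (UPF1 lower and UPF2 higher without control replicate 1), 0 to 3 for Endovion (UPF1 lower, UPF2 and SMG8 higher without control replicate 1), 2 to 5 for THZ531 (UPF1 lower and UPF3A higher added without its replicate 1) and 2 to 3 for the combination. The causes were not tested.

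Scaling T>C reads by all reads moved the median of all genes under Endovion to -0.10 from -0.01, with 166 genes higher and 95 lower against 203 and 62. Genes called in total RNA under SRPIN340 were 909 in DESeq2 and 1211 without the filter, and in nascent RNA 156 without the filter against 103. The interaction had 30 genes called, 18 in DESeq2 and 67 without the filter. Genes called in the labeled share were 19, 29 and 31 for SRPIN340, Endovion and THZ531, 29, 66 and 55 in DESeq2, and 47, 78 and 78 without the filter, and for the combination 105 and 158 without the filter. Depth limits UPF3A, UPF3B, SMG5, SMG6 and SMG9, whose T>C reads were at most 36 per library, and 2 libraries per group limit all comparisons.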
